A study of Mus musculus with 12 samples.

Results

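The 10 genes described here, Ccdc88c, Mpdz, Rnd3, Cdh2, L1cam, Napa, Llgl1, Numb, Numbl and Celsr2, build or regulate cell junctions, adhesion and polarity in the brain, and loss of each, alone or together with a relative, has been linked to hydrocephalus in patients or in mice. Their members on the array are all probes that the platform annotation assigns to these symbols, 25 of 45281 probes and 10 of 21946 named genes. Mpdz and Numb have 5 probes each, Napa has 3, Ccdc88c, Cdh2, Llgl1, Numbl and Celsr2 have 2 each, and Rnd3 and L1cam have 1 each. A further probe, ILMN_1237980, carries an older name of Ccdc88c in that annotation and is described apart from the 25.

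RNA of whole brains from 12 mice at 1 day of age was hybridized to single-colour Illumina MouseWG-6 arrays, 1 brain per array and 3 brains per group. WT 129 and WT B6 brains are wild type brains of the 129S6/SvEvTac and C57BL6/J strains. The nm1054 129 and nm1054 B6 brains came from mice homozygous for nm1054, a spontaneous deletion on chromosome 1 that removes the cilia gene Cfap221 together with neighbours such as Dbi and Steap3, and only the nm1054 B6 mice carry in addition a transgene that restores Steap3. Every difference that includes nm1054 B6 brains therefore includes that transgene. The study set these groups side by side because hydrocephalus of nm1054 mice is more severe on B6 than on 129, and males and females were mixed in each group. Values are log2 intensities relative to the median of a probe over the 12 brains, so 0 is the middle brain and 1 is a doubled intensity. They say nothing about how bright a probe is, and levels are compared between brains and never between probes.

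The ventricles of the brain are lined by neuroepithelium that becomes radial glia and then ependyma, and these cells hold together through apical adherens junctions built on N-cadherin. Polarity proteins and vesicle fusion factors place the junction components at the apical surface, and small GTPases set the actin belt behind them. Loss of junctions strips the ventricular lining, which can close the aqueduct or disturb the flow of cerebrospinal fluid.

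Differences between group means were fitted with limma over all probes. Calls need both a Benjamini-Hochberg adjusted p below 0.05 and more than a 1.5-fold difference, or 0.58 on the log2 scale. The median of all probes lay 0.15 log2 units higher in 129 than in B6 for WT brains and 0.12 higher for nm1054 brains, and this shrank to 0.02 in each genotype when the median of every array was set to 0. The lowest array median, -0.17, and the lowest array weight in limma, 0.230, both belonged to replicate 1 of WT B6, and the highest median was 0.11. All 3 probes of the deleted gene Dbi were lower in each nm1054 brain than in any WT brain, with differences of -7.28 log2 units on B6 and -7.15 on 129 at ILMN_1215469. Labels do not say whether the brains of a group came from separate litters, so the p-values measure the spread between these brains.

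Of the 25 probes, 3 were called between 129 and B6 in WT brains and 3 in nm1054 brains. In both genotypes these were Ccdc88c ILMN_2807229, Rnd3 ILMN_1230157 and Cdh2 ILMN_2605503, each lower in 129. Over all probes, 3.33% were called in WT and 3.27% in nm1054 brains, and 1.66% and 1.88% were called as lower in 129. The other 7 genes had no called probe. The methods' t-test with the same adjustment called none of the 3 in WT brains (adjusted p = 0.127 for Rnd3, 0.0934 for Ccdc88c and 0.0850 for Cdh2) and all 3 in nm1054 brains. The study itself picked out Ccdc88c and Rnd3 from these arrays by differential expression in its nm1054 comparison. It picked out Cdh2 and Mpdz by detection calls of present, marginal or absent, which were not used here. The calls of Ccdc88c, Rnd3 and Cdh2 therefore carry no independent weight as evidence.

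**Figure D1:**
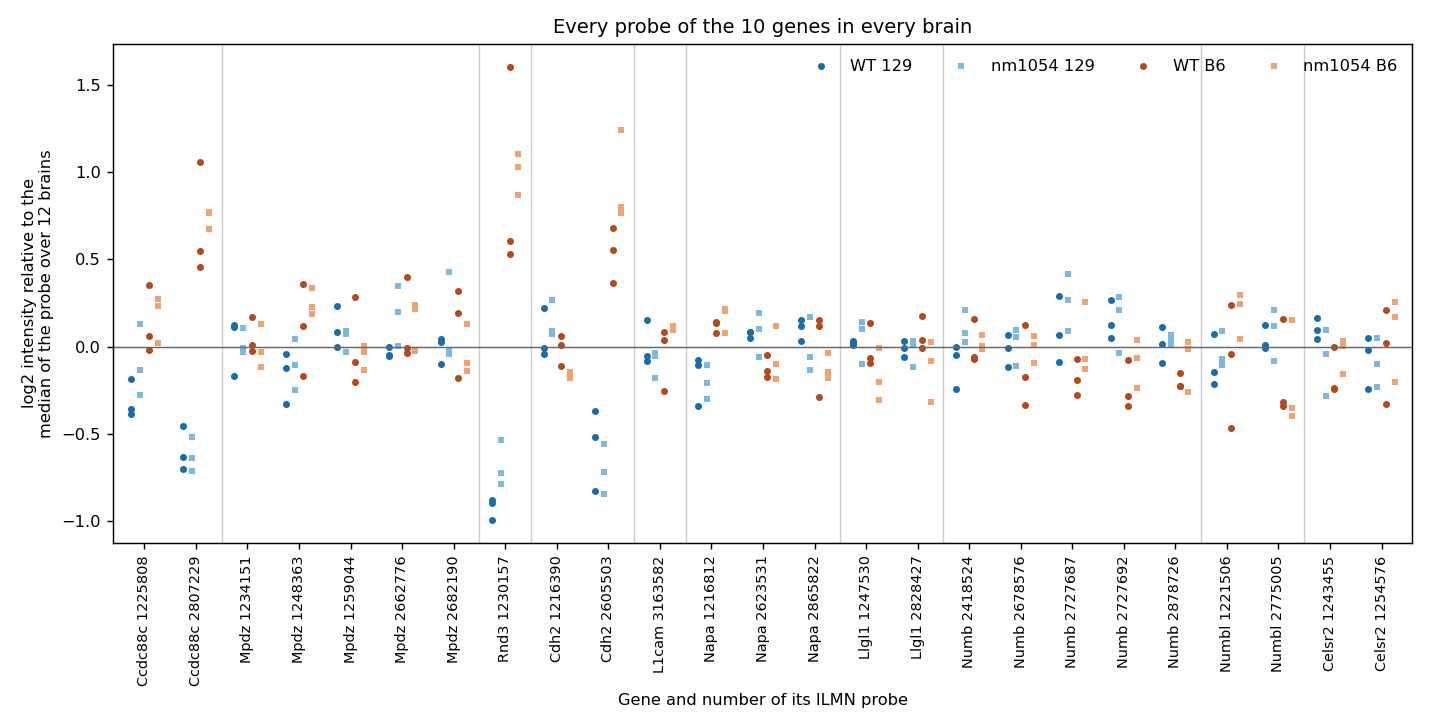
Log2 intensity relative to the median of the probe (vertical axis) at each of the 25 probes (horizontal axis, grouped by gene) in each of the 12 brains, blue for 129, orange for B6, circles for WT and squares for nm1054. All 6 blue points lie below all 6 orange points at Ccdc88c ILMN_2807229, Rnd3, Cdh2 ILMN_2605503 and Napa ILMN_1216812, and at most other probes the colours mix between -0.5 and 0.5.

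**Figure D2:**
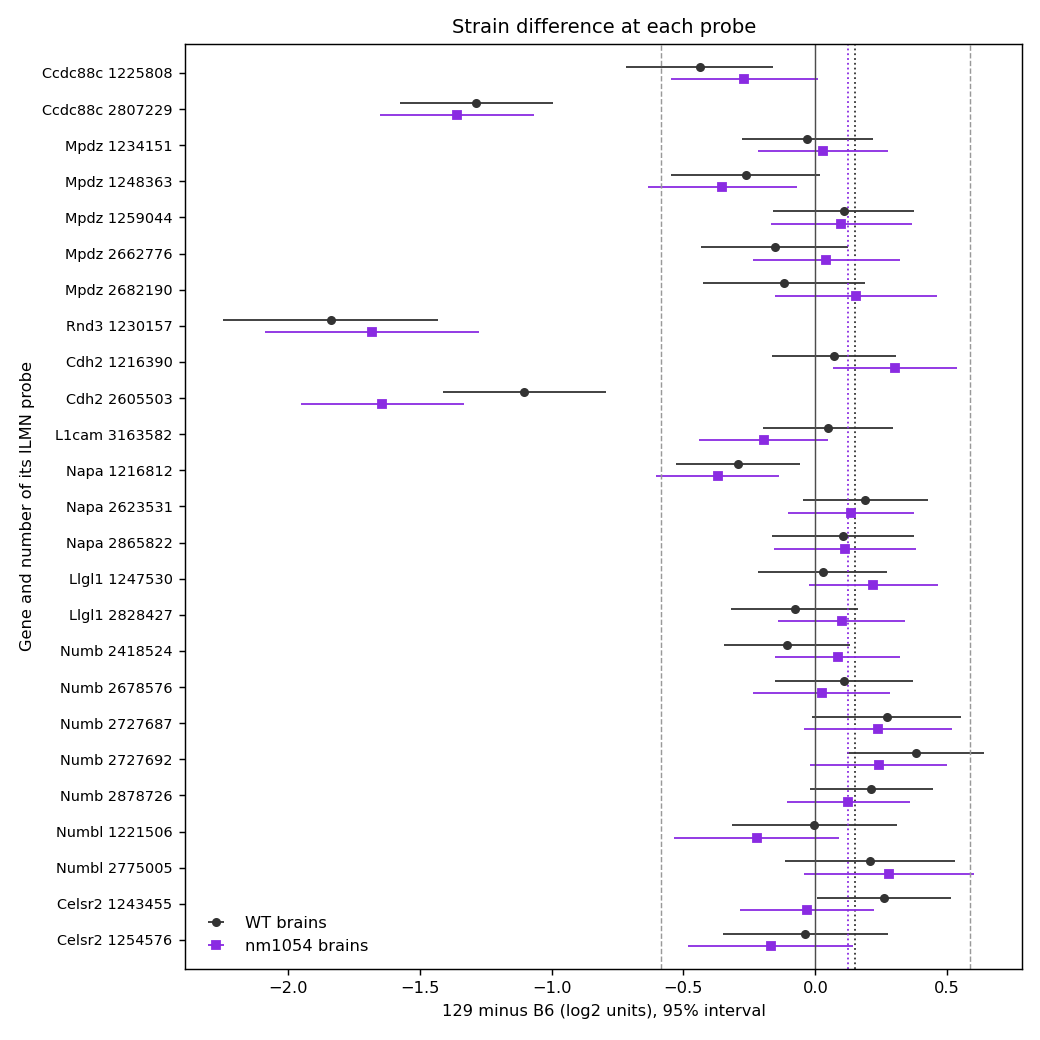
129 minus B6 in log2 units (horizontal axis) at each of the 25 probes (vertical axis) in WT brains (black circles) and nm1054 brains (violet squares), with 95% intervals from limma and 3 brains per group. Dashed lines mark a fold of 1.5 and dotted lines the medians of all probes, 0.15 and 0.12, and the 3 called probes lie between -1.84 and -1.10.

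Rnd3 showed the largest strain difference among the 10 genes in WT brains. It encodes an atypical small GTPase that stays bound to GTP and loosens actin stress fibres, and mice that lack it develop narrowing of the aqueduct. The relative level at ILMN_1230157 was -0.90, -0.88 and -0.99 in the WT 129 brains and 1.60, 0.60 and 0.53 in the WT B6 brains. In nm1054 mice it was -0.72, -0.79 and -0.53 on 129 and 1.03, 1.10 and 0.87 on B6. All 6 values of 129 brains lay below all 6 values of B6 brains, and the highest value belonged to WT B6 replicate 1. The difference of 129 from B6 was -1.84 (SE 0.19, adjusted p = 1.63e-06) in WT brains, a 3.58-fold lower level. In nm1054 brains it was -1.68 (SE 0.19, adjusted p = 5.32e-06), or 3.21-fold. Without WT B6 replicate 1 the difference in WT brains was -1.49, still called.

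Ordered by group mean, Rnd3 was lowest in WT 129 brains at -0.92 ± 0.06 (SD, n = 3), followed by nm1054 129 at -0.68 ± 0.13, WT B6 at 0.91 ± 0.60 and nm1054 B6 at 1.00 ± 0.12. The 3 nm1054 129 values lay above the 3 WT 129 values, yet this step of 0.24 did not pass the test (adjusted p = 1.00), and the means of WT B6 and nm1054 B6 lay within their spread of each other. Rnd3 has only this probe, so no other probe bears on its difference.

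RefSeq's promoter table for GRCm38.p6 holds a window of 300 bases around the start of Rnd3, at chr2:51149062-51149361 on the minus strand. The window is shown because Rnd3 had the widest strain gap of the 10 genes, and capitals mark the motifs found in it.
Rnd3: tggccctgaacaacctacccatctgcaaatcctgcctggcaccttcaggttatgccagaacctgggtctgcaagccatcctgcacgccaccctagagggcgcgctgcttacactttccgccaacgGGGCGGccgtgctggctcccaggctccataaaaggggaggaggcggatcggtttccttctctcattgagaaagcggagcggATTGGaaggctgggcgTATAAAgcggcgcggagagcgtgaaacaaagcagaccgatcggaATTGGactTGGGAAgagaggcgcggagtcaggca
Motifs were searched on both strands as the GC box GGGCGG, the TATA box TATAAA, the CCAAT box CCAAT, the E-box CAGCTG and the RBPJ core TGGGAA. The GC box begins at base -125 from the start, the TATA box at -28 and the RBPJ core at 25, and the CCAAT box lies on the opposite strand at -44 and 17, read as ATTGG. No matches overlap, and the E-box form CAGCTG has no match. Other forms of the E-box were not searched. Over 32851 promoter windows of this length, 35.7% hold the GC box, 13.6% the TATA box, 37.4% the CCAAT box, 16.3% the E-box and 25.6% the RBPJ core. The window has a GC content of 59.7%, against a median of 52.7% over all windows. A match describes these letters alone and was not tied to the strain difference by any measurement here.

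Ccdc88c encodes Daple, a relative of Girdin that binds Dishevelled and Gi proteins, acts in Wnt signaling and helps to narrow the apical side of epithelial cells. At ILMN_2807229 the values were -0.46, -0.70 and -0.63 in WT 129 and 1.06, 0.55 and 0.46 in WT B6 brains. The nm1054 brains gave -0.52, -0.64 and -0.71 on 129 and 0.77, 0.67 and 0.77 on B6. The strains did not overlap in either genotype. The difference was -1.29 (SE 0.14, adjusted p = 2.15e-06) in WT and -1.36 (SE 0.14, adjusted p = 9.66e-07) in nm1054 brains, which are 2.44-fold and 2.57-fold lower levels in 129. Leaving out WT B6 replicate 1, the highest brain, gave -1.10 in WT brains.

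The second Ccdc88c probe, ILMN_1225808, moved the same way by less. It read -0.36, -0.39 and -0.18 in WT 129, 0.35, 0.06 and -0.02 in WT B6, -0.28, -0.13 and 0.13 in nm1054 129 and 0.27, 0.23 and 0.02 in nm1054 B6 brains. WT 129 lay below WT B6 without overlap, while the nm1054 groups overlapped through 1 brain of each. Its difference of -0.44 in WT brains had an adjusted p of 0.0495 but a fold of 1.36, under the threshold, and in nm1054 brains it was -0.27 (adjusted p = 0.240). Without WT B6 replicate 1 the difference in WT brains was -0.33 (adjusted p = 0.160).

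The probe under the older name of Ccdc88c, ILMN_1237980, lies outside the rule for the 25 and was looked at after its symbol had been updated. It read -0.42, -0.73 and -0.85 in WT 129 and 0.48, 1.40 and 0.42 in WT B6 brains. In nm1054 mice it read -0.99, -0.78 and -0.89 on 129 and 0.59, 1.03 and 0.47 on B6. The 129 brains again lay below every B6 brain, and here WT B6 replicate 2 was the highest. Differences were -1.44 (adjusted p = 7.59e-05) in WT and -1.58 (adjusted p = 2.18e-05) in nm1054 brains, so 2 of the 3 Ccdc88c probes on the array pass the threshold in each genotype.

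Cdh2 encodes N-cadherin, the adhesion molecule of the apical adherens junctions of neural progenitors. Its probe ILMN_2605503 read -0.37, -0.52 and -0.82 in WT 129 and 0.56, 0.68 and 0.37 in WT B6 brains. In nm1054 brains it read -0.84, -0.56 and -0.72 on 129 and 1.24, 0.77 and 0.80 on B6. Again every 129 brain lay below every B6 brain, and nm1054 B6 replicate 1 was the highest. The difference was -1.10 (SE 0.15, adjusted p = 3.80e-05) in WT and -1.64 (SE 0.15, adjusted p = 1.65e-07) in nm1054 brains, or 2.15-fold and 3.12-fold lower in 129. The group means of the strains were -0.57 ± 0.23 and 0.53 ± 0.16 in WT brains and -0.71 ± 0.14 and 0.94 ± 0.26 in nm1054 brains (SD, n = 3).

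The other Cdh2 probe, ILMN_1216390 did not follow. Its values were 0.22, -0.01 and -0.04 in WT 129, 0.01, -0.11 and 0.06 in WT B6, 0.09, 0.07 and 0.27 in nm1054 129 and -0.14, -0.16 and -0.18 in nm1054 B6 brains. WT groups overlapped, and the nm1054 129 brains lay above the nm1054 B6 brains, in the direction opposite to the first probe. Differences were 0.07 (adjusted p = 0.701) in WT and 0.30 (adjusted p = 0.122) in nm1054 brains, and 0.21 in nm1054 brains after centring. Across the 12 brains the Cdh2 probes had a Pearson correlation of -0.71, and 0.19 once group means were removed, given as a description of 2 probes read from the same arrays. The array's probe sequences were not used here, so whether they read different transcripts, or bases that differ between the strains, was not tested. With both probes averaged before the fit, Cdh2 differed by -0.52 (adjusted p = 0.00671) in WT brains, under the fold threshold, and by -0.67 (adjusted p = 0.000733) in nm1054 brains. With arrays centred the WT value was -0.65 and passed the threshold.

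**Figure D3:**
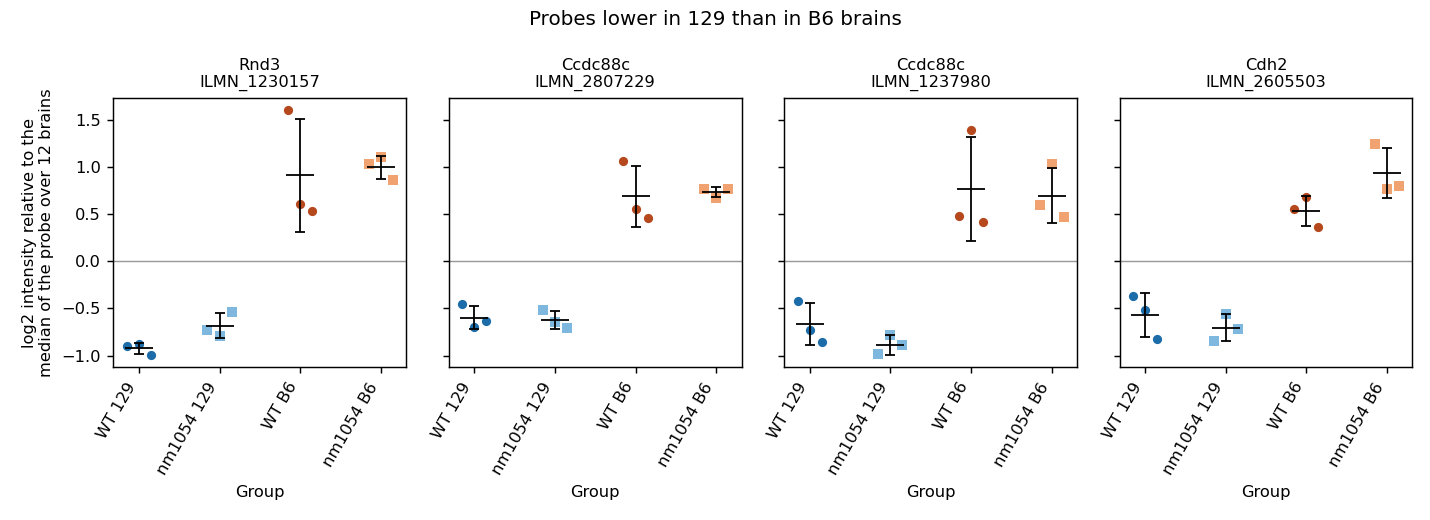
Log2 intensity relative to the median of the probe (vertical axis) by group (horizontal axis) for the 3 called probes and the probe under the older name of Ccdc88c. Points are brains and bars show the mean and SD of 3 brains, and at each of the 4 probes the 129 groups lie below 0 and the B6 groups above 0.

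The probes of other named genes whose values ran closest to the called probes over the 12 brains were sought as a description. Closest to Rnd3 were Pgap2 (Pearson r = 0.996), Ncoa4 (0.993) and Ociad1 (0.987). Closest to Ccdc88c ILMN_2807229 were Cep162 (0.993), Jpt2 (0.988) and Xylt1 (0.988). For Cdh2 ILMN_2605503 they were Plekhf2 (0.985), Atp7a (0.983) and Pdhb (0.976). All 9 were lower in 129 in both genotypes, which their selection by likeness to probes split by strain fixed in advance. Ociad1 was called in neither genotype (-0.48 in each), and Plekhf2 and Pdhb were called only in nm1054 brains. The points share the same 12 arrays and the same split by strain.

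Mpdz encodes MUPP1, a scaffold with many PDZ domains at tight junctions and the apical surface of choroid plexus and ependyma, and its loss causes hydrocephalus in patients and mice. None of its 5 probes was called. The lowest was ILMN_1248363, with -0.04, -0.12 and -0.33 in WT 129, -0.17, 0.12 and 0.36 in WT B6, -0.11, 0.04 and -0.25 in nm1054 129 and 0.34, 0.23 and 0.18 in nm1054 B6 brains. WT groups overlapped through WT B6 replicate 1, and the nm1054 groups did not overlap. Its difference was -0.26 (adjusted p = 0.215) in WT and -0.35 (adjusted p = 0.133) in nm1054 brains, with 95% intervals from -0.55 to 0.02 and from -0.64 to -0.07. Once each array was centred on its median, all 6 values of 129 brains lay below all 6 of B6 brains at this probe. The other 4 Mpdz probes differed by -0.15 to 0.11 in WT and by 0.03 to 0.15 in nm1054 brains. Averaged over its 5 probes, Mpdz differed by -0.09 (adjusted p = 0.532) and -0.01 (adjusted p = 0.976).

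Llgl1 and Celsr2 act in polarity. Llgl1 is the mouse homologue of the fly gene lethal giant larvae, a basolateral polarity factor whose loss disrupts neural progenitor junctions. Its probes differed by 0.03 and -0.08 in WT and by 0.22 and 0.10 in nm1054 brains, with adjusted p from 0.274 to 0.893, and all values of the 12 brains lay between -0.31 and 0.18. Celsr2 encodes an atypical cadherin of planar cell polarity that orients ependymal cilia. At ILMN_1243455 the values were 0.05, 0.17 and 0.09 in WT 129 and -0.24, -0.24 and 0.00 in WT B6 brains. WT 129 lay above WT B6 without overlap, a difference of 0.26 (adjusted p = 0.178), while nm1054 brains, at 0.10, -0.28 and -0.04 on 129 and 0.03, -0.16 and 0.00 on B6, overlapped. After centring, the WT groups overlapped at this probe too. The second Celsr2 probe, ILMN_1254576, differed by -0.04 in WT and -0.17 in nm1054 brains (adjusted p = 0.886 and 0.515).

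Napa encodes alpha-SNAP, a vesicle fusion factor whose mutation in hyh mice misplaces apical proteins of the neuroepithelium. The values of ILMN_1216812 were -0.08, -0.34 and -0.10 in WT 129 and 0.13, 0.08 and 0.14 in WT B6 brains. In nm1054 brains they were -0.21, -0.11 and -0.30 on 129 and 0.20, 0.21 and 0.08 on B6. Every 129 brain lay below every B6 brain, at a distance far smaller than at the called probes. Differences were -0.29 (SE 0.11, adjusted p = 0.107) in WT and -0.37 (SE 0.11, adjusted p = 0.0538) in nm1054 brains. The other Napa probes, ILMN_2623531 and ILMN_2865822, leaned the other way, by 0.19 and 0.11 in WT and 0.13 and 0.11 in nm1054 brains, with adjusted p from 0.285 to 0.625, so that the mean of the 3 Napa probes differed by 0.00 in WT and -0.04 in nm1054 brains.

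The Napa window in the same RefSeq table lies at chr7:16098330-16098629 on the plus strand. It is shown because the Napa probe ILMN_1216812 separated the strains in all 12 brains and a window was at hand. The other Napa probes did not separate them and leaned the other way.
Napa: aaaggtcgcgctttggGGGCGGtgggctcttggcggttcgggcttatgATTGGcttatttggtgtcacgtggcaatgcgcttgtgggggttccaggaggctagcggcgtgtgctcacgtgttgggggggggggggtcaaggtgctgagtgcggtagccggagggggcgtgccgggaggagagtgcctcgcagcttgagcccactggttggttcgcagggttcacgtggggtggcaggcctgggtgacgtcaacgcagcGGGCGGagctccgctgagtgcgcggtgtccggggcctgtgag
Capitals mark the GC box at bases -234 and 9 and the CCAAT box on the opposite strand at -202, and its GC content is 67%. No TATA box, E-box or RBPJ core was found in this window. Windows were matched for 7 of the 10 genes, and Ccdc88c, Mpdz and Cdh2 had none.

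L1cam encodes an adhesion molecule of growing axons, and its gene lies on the X chromosome and is mutated in X-linked hydrocephalus of patients. The single probe ILMN_3163582 read -0.08, 0.15 and -0.05 in WT 129, -0.26, 0.08 and 0.04 in WT B6, -0.04, -0.18 and -0.06 in nm1054 129 and 0.12, 0.10 and 0.10 in nm1054 B6 brains. WT strains overlapped (difference 0.05, adjusted p = 0.804), and nm1054 129 lay below nm1054 B6 without overlap (difference -0.20, adjusted p = 0.331). In the 6 brains with Xist above its median, the X-linked RNA of females, the L1cam median was 0.03, and in the other 6 it was -0.01, with overlapping ranges. Xist was above its median in WT 129 replicates 2 and 3, nm1054 129 replicate 1, WT B6 replicate 1 and nm1054 B6 replicates 1 and 2. Within each genotype, and within each strain, the groups therefore held unequal numbers of females, and no comparison was adjusted for sex.

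Numb and Numbl encode endocytic adaptors that oppose Notch and keep cadherins at the adherens junctions of radial glia. Numb ILMN_2727692 read 0.12, 0.05 and 0.27 in WT 129 and -0.29, -0.34 and -0.08 in WT B6 brains, with no overlap. In nm1054 brains it read -0.04, 0.21 and 0.28 on 129 and 0.04, -0.07 and -0.24 on B6, with overlap. The difference was 0.38 (SE 0.12, adjusted p = 0.0654) in WT and 0.24 (adjusted p = 0.261) in nm1054 brains, and 0.25 and 0.14 after centring. ILMN_2878726 was apart in the same direction in WT brains, by 0.21 (adjusted p = 0.224), but not after centring. Over the 5 Numb probes the differences ran from -0.11 to 0.38 in WT and from 0.02 to 0.24 in nm1054 brains. The 2 Numbl probes disagreed, at 0.00 and 0.21 in WT and -0.22 and 0.28 in nm1054 brains, with adjusted p from 0.293 to 0.987. Their Pearson correlation over the 12 brains was -0.55, and Numbl ILMN_1221506 ranged from -0.47 in WT B6 replicate 1 to 0.29 in nm1054 B6 replicate 3.

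Counted over the 25 probes, 7 had an unadjusted p under 0.05 in WT brains, where 26.7% of all probes did, and 6 in nm1054 brains, where 22.2% did. An adjusted p under 0.05 alone was reached by 4 probes in WT brains (7.79% of all probes) and 3 in nm1054 brains (6.43%). The strains did not overlap at 9 probes in WT brains, 5 lower and 4 higher in 129, against 29.4% of all probes, 5.59% lower and 23.8% higher. In nm1054 brains they did not overlap at 7 probes, 6 lower and 1 higher, against 29.3%, of which 6.07% were lower and 23.2% higher. With arrays centred, 8 and 7 members were apart and lower in 129, against 11.5% and 10.6% of all probes. Without centring, shares apart in either direction and shares with a small unadjusted p were thus near those of all probes. Members with an adjusted p under 0.05, and members apart and lower in 129, were more frequent than among all probes. This is a description of genes chosen with results known. The median difference of the 25 probes was 0.00 in WT and 0.04 in nm1054 brains, and 13 and 10 of them were below 0, where 22.4% and 25.0% of all probes were. With arrays centred the medians were -0.13 and -0.06, with 19 and 14 probes below 0 against 45.7% and 44.1% of all probes.

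The strain difference was also taken as the mean over both genotypes, 6 brains against 6. The same 3 probes were called, at -1.76 for Rnd3, -1.32 for Ccdc88c ILMN_2807229 and -1.37 for Cdh2 ILMN_2605503, against 2.97% of all probes called and 1.7% called as lower. Each had an exact two-sided permutation p of 0.005 over 400 relabellings within genotype, the smallest these can give, as had Napa ILMN_1216812. A probe whose strains are apart in the same direction in both genotypes must give this value. It therefore restates the lack of overlap at these probes and adds no support. At an adjusted p under 0.05 alone, which 21.5% of all probes reached, there were 7 member probes. The 4 added by that rule were Napa ILMN_1216812 at -0.33 (adjusted p = 0.00689), Ccdc88c ILMN_1225808 at -0.35 (adjusted p = 0.0141), Mpdz ILMN_1248363 at -0.31 (adjusted p = 0.0293) and Numb ILMN_2727692 at 0.31 (adjusted p = 0.0192). None of these 4 reached 1.5-fold, and after centring Numb ILMN_2727692 was at 0.20 (adjusted p = 0.168) and Mpdz ILMN_1248363 at -0.42 (adjusted p = 0.000856). An unadjusted p under 0.05 was reached by 11 probes, against 39.4% of all. All 6 brains of 129 lay below all 6 of B6 at 4 member probes, the 3 called ones and Napa ILMN_1216812, against 2.71% of all probes.

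Between nm1054 and WT brains, no member probe was called on either background. On B6, where the mutants carry the transgene, differences ran from -0.19 to 0.40 and the smallest adjusted p was 0.766, while 0.0177% of all probes were called. Cdh2 ILMN_2605503 was the only member with an unadjusted p under 0.05 (6.12% of all probes), at 0.40 (95% interval 0.09 to 0.71, adjusted p = 0.766), and its 3 nm1054 B6 values lay above its 3 WT B6 values. The other Cdh2 probe was lower in those mutants, at -0.15, and L1cam higher, at 0.15, so that 3 probes did not overlap, against 9.22% of all probes.

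On 129 the differences ran from -0.18 to 0.24, with adjusted p of 1.00 throughout, and no member had an unadjusted p under 0.05 (2.65% of all probes, with 0.0199% called). Rnd3 at 0.24, Mpdz ILMN_2662776 at 0.22 and Numb ILMN_2418524 at 0.20 were higher in every nm1054 129 brain than in any WT 129 brain, 3 probes, where 3.28% of all probes were apart in that direction and 11.1% in either. The median absolute difference of the members was 0.117 on B6 and 0.0600 on 129, next to 0.0961 and 0.0860 over all probes.

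**Figure D4:**
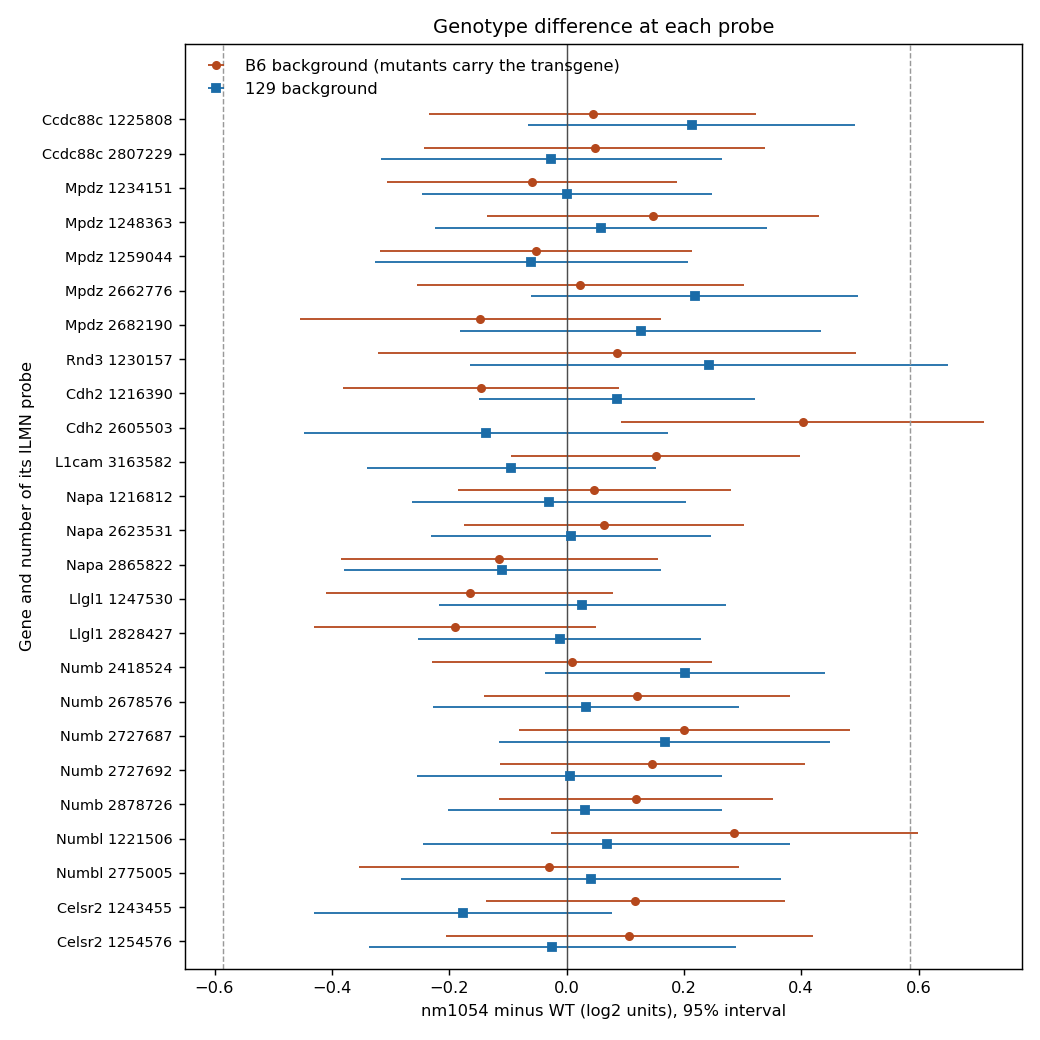
nm1054 minus WT in log2 units (horizontal axis) at each of the 25 probes (vertical axis) on B6 (orange circles, mutants with the transgene) and on 129 (blue squares), with 95% intervals from limma and 3 brains per group. Every point lies inside the dashed lines at a fold of 1.5, and only the interval of Cdh2 ILMN_2605503 on B6 leaves out 0.

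Whether the strain difference itself changed with genotype was tested as an interaction. No member was called, where 0.00221% of all probes were, and Cdh2 ILMN_2605503 was the only one with an unadjusted p under 0.05 (4.09% of all probes). Its interaction of -0.54 (95% interval -0.98 to -0.10, adjusted p = 1.00) is the gap between -1.64 in nm1054 and -1.10 in WT brains, and it includes the transgene. For Rnd3 it was 0.16 (95% interval -0.42 to 0.73) and for Ccdc88c ILMN_2807229 it was -0.07 (95% interval -0.48 to 0.34). The intervals of Rnd3 and Ccdc88c include 0 and also changes of up to 0.73 log2 units, and that of Cdh2 reaches -0.98, so equal strain differences in the genotypes were not shown.

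Probes of a single gene often disagreed. Among the 28 pairs of member probes that share a gene, 6 had a Pearson correlation above 0.5 over the 12 brains and 10 were below 0, with a median of 0.18. The highest were Numb ILMN_2727687 with ILMN_2727692 at 0.83 and Ccdc88c ILMN_1225808 with ILMN_2807229 at 0.77, and the lowest was the Cdh2 pair. With the probes of each gene averaged before the fit, Rnd3 and Ccdc88c were called in both genotypes and Cdh2 in nm1054 brains, as well as in WT brains once arrays were centred. Over all 21946 genes averaged in this way and without centring, 2.77% were called in WT and 2.77% in nm1054 brains.

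Genes that work with the 10 were taken as 9 lists, of which 118 genes were measured by 235 probes. In WT brains 10 of these probes were called, 6 higher and 4 lower in 129, and in nm1054 brains 9, 5 higher and 4 lower, next to 3.33% and 3.27% of all probes. Their median differences were 0.11 and 0.08, below those of all probes at 0.15 and 0.12. Among partners of N-cadherin, the related cadherin Cdh4 was lower in 129 like Cdh2 ILMN_2605503, by -0.92 (adjusted p = 0.000544) and -1.28 (adjusted p = 9.76e-06). Ctnna2, the neuronal alpha-catenin, was higher by 0.62 in WT brains at 1 probe, and its gene mean was not called.

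In the L1 family, Chl1, the close homologue of L1, was higher in 129 at ILMN_2644008. The differences were 2.06 (adjusted p = 1.17e-09) in WT and 1.44 (adjusted p = 2.47e-07) in nm1054 brains. Chl1 ILMN_2687300 was called in WT brains alone, at 0.92, with 0.54 in nm1054 brains. Chl1 ILMN_1248706 (0.19 and 0.12) and ILMN_2668741 (0.22 and -0.002) were called in neither genotype. For the adaptor ankyrin Ank2, 1 probe was lower by -1.26 and -1.25, and its gene mean was not called. Of the planar polarity genes that act with Celsr2, the receptor Fzd6 was lower at 1 of 2 probes. The differences were -0.95 (adjusted p = 0.000195) in WT and -0.83 (adjusted p = 0.000889) in nm1054 brains. Its mean over both probes, -0.39 and -0.32, was not called. Vangl2 was lower by -0.78 in WT brains at 1 probe, and its gene mean was not called. Of the polarity complex at the apical membrane, Lin7b was higher by 0.73 and 0.69 at ILMN_1260389. Lin7b ILMN_2602230 was called in WT brains alone (0.65) and ILMN_2598318 in nm1054 brains alone (0.59). Lin7b ILMN_2853035 was called in neither, at 0.18 in WT and 0.54 in nm1054 brains. Lin7a was lower by -0.69 at 1 of 4 probes in nm1054 brains, where its gene mean of -0.22 was not called. No probe of the tight junction, Girdin and Gi protein, SNAP and SNARE, or Notch and Numb partner lists was called in either genotype. Between genotypes a single list probe was called, Cntn2 ILMN_2672943, higher in nm1054 129 than in WT 129 brains by 1.44 (adjusted p = 0.000206). Cntn2 encodes a contactin that binds L1, and the mean of its 4 probes was not called.

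**Figure D5:**
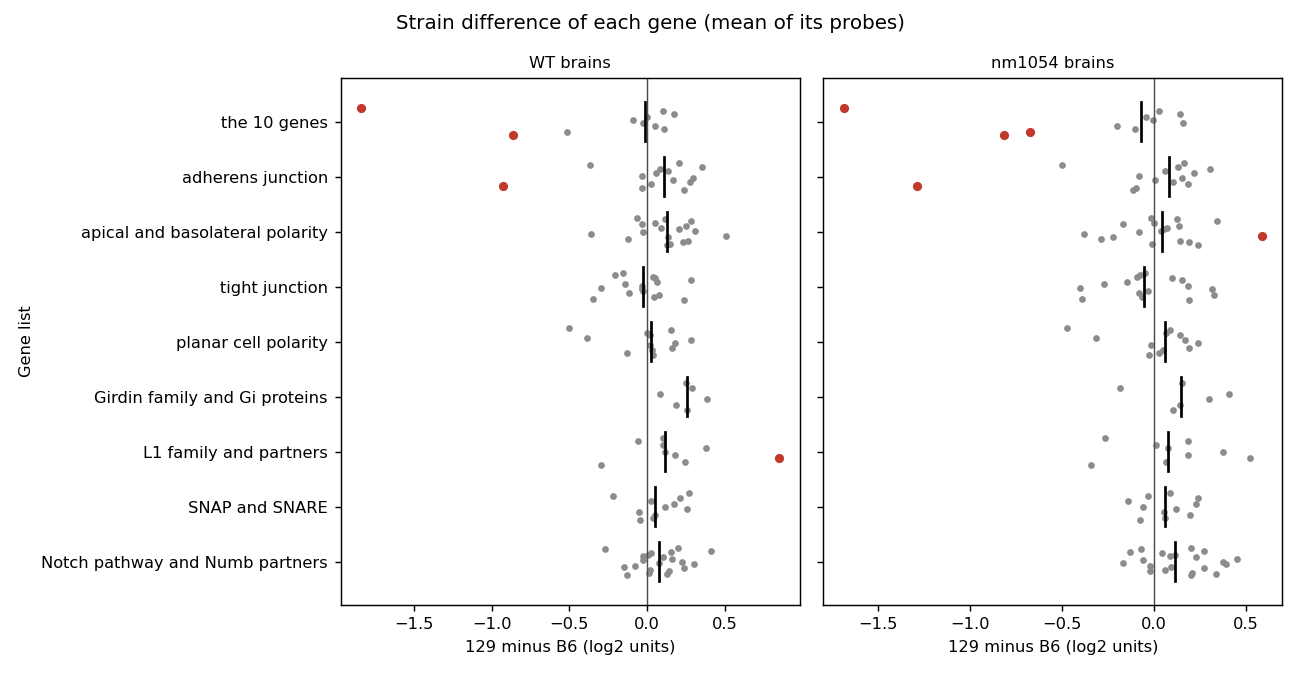
129 minus B6 in log2 units (horizontal axis) of each gene, as the mean of its probes, in the 10 genes and 8 of the 9 lists (vertical axis), with WT brains on the left and nm1054 brains on the right. Red points are called genes and black bars list medians, and the 3 points farthest left among the 10 genes in nm1054 brains are Rnd3, Ccdc88c and Cdh2.

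Markers of the cell types of a newborn brain were read beside these differences, since in whole tissue fewer cells of a type and less RNA per cell cannot be told apart. Choroid plexus markers moved in the direction of the called probes. Of 7 measured, 5 were lower in 129 in WT brains with Aqp1 called at -0.62, and 6 were lower in nm1054 brains with Otx2 called at -0.88, and the list medians were -0.22 and -0.36. The mean of these markers ran from -0.13 to 0.00 in WT 129 and from -0.07 to 0.30 in WT B6 brains, and from -0.37 to -0.09 in nm1054 129 and from 0.05 to 0.20 in nm1054 B6 brains. Ttr, the most characteristic of them, differed by 0.01 and -0.08. Markers of radial glia and astrocytes had median differences of 0.14 and 0.10 with none called, and those of ependyma 0.18 and -0.03 with none called. These list medians were not centred, and the medians of all probes were 0.15 in WT and 0.12 in nm1054 brains. Of all probes, 22.4% in WT and 25.0% in nm1054 brains were lower in 129. Neuron markers averaged 0.11 in WT 129, 0.04 in nm1054 129, -0.11 in WT B6 and -0.08 in nm1054 B6 brains. Proliferating progenitor markers averaged 0.06, 0.14, -0.13 and -0.05 in that order, so both lists were higher in 129. Microglia markers averaged -0.03, -0.08, 0.005 and 0.05, lower in 129. Of all genes as means of their probes, 2.77% were called in each genotype. The remaining calls were Col1a2 of the meninges at -0.70 in WT brains, and Lum of the meninges at 0.70 and Alas2 of red blood cells at 0.71 in nm1054 brains, the last not called once arrays were centred. The part of cell composition in the differences of Rnd3, Ccdc88c and Cdh2 was not tested.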

How the data were processed

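Whole brains of 12 newborn mice were measured on Illumina MouseWG-6 arrays. The authors read the arrays with GenomeStudio and used GeneSpring GX for normalization, and what they deposited is a log2 intensity per probe and array, set against that probe's median. The kind of normalization and the software versions are not given in the sources used here. The number of arrays limits the precision. Of 45281 probes 35784 received a symbol (28620 by gene identifier, 2637 by transcript, the rest as on the platform) and 9497 did not. Group means were fitted over all 12 arrays and all probes in limma 3.58.1 (R 4.3.3), with 8 residual and 10.8 prior degrees of freedom and two-sided Benjamini-Hochberg adjusted p-values. Single probes were also checked by an exact permutation over 6 brains against 6, since 3 against 3 cannot go below p = 0.1. The fit was tested on simulated data. Named genes are all members, up to 4 called genes of each partner list per strain comparison, those called between genotypes and the 3 probes closest to each called probe. Members and lists were chosen with earlier results of these data known. Alternatives were the methods' t-test, other normalizations, filters, weights and folds, a replicate block, gene means, and each array left out. Figures used Python 3.11.15, matplotlib 3.10.9 and pandas 2.3.3. A result of 1 partner list is not reported here. Detection calls and probe sequences were not used here.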

Additional observations from a re-analysis of the deposited data

How the results depend on the processing

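Rnd3, Ccdc88c ILMN_2807229 and Cdh2 ILMN_2605503 kept their direction in all 22 settings within WT and within nm1054 brains and in all 20 over both genotypes. Some settings, such as the t-test and other folds, reuse the same group means and cannot change the direction. In nm1054 brains these 3 probes were called in all 22 settings, and in WT brains in 21. The exception was the methods' t-test, which called 0 of the 25 probes in WT brains (adjusted p of 0.127 for Rnd3, 0.0934 for Ccdc88c and 0.0850 for Cdh2), as against 3 by limma, and it called 543 of all probes where limma called 1510 (nm1054 brains 714 and 1479, genotype on B6 1 and 8, on 129 4 and 9). Over the settings the WT difference ran from -2.03 to -1.49 for Rnd3, from -1.42 to -1.10 for Ccdc88c and from -1.23 to -0.98 for Cdh2. Over both genotypes, dropping the fold threshold raised the called probes from 3 to 7. With each array left out in turn, 3 to 3 probes were called in every strain comparison and 0 to 0 between genotypes and in the interaction. Of all probes called in WT brains, 758 were higher and 752 lower in 129, and with arrays centred 428 and 1035; in nm1054 brains 628 and 851, and 408 and 1117. No member was called between genotypes in any of these settings, although over all probes the count on B6 went from 8 to 93 without WT B6 replicate 1 and to 133 with array weights, which also raised it from 9 to 31 on 129 and from 1 to 39 in the interaction (7 without WT B6 replicate 1). A replicate block left 3 probes called in each strain comparison and 0 elsewhere. The replicate numbers share no batch in the labels, same-numbered arrays correlated at -0.32 to 0.19 and 2 of 12 arrays correlated best with their own number, so they were not taken as pairs. No signal level is given, so dim probes could not be told from bright ones, and 3 brains per group left standard errors of 0.11 to 0.19 log2 units.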
